A study of Mus musculus with 6 samples.

Results

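Amino acid carriers are membrane proteins that move amino acids into the cell, out of it or across the lysosomal membrane. The 30 genes described here belong to the SLC1, SLC3, SLC6, SLC7, SLC36, SLC38 and SLC43 families and were chosen by symbol, with earlier results of these data known. All 30 were found among the 23481 genes of the deposited count table. Messenger RNA was sequenced from 4T1 cells, a mouse mammary carcinoma cell line named 4T1_T in the table's title, grown in DMEM with non-essential amino acids and infected with 1 of 3 short hairpin RNAs. The groups were the hairpins shAsns-1 and shAsns-2, which both target Asns (asparagine synthetase, the enzyme that makes asparagine), and shRenilla, a control hairpin named for a luciferase absent from mouse cells. Each hairpin had libraries A and B in the labels, which do not say whether these were separate infections or cultures. The p-values thus measure only the spread between these libraries, which the test shares in part across genes. No source used here gives the vector, its promoter or any selection.

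Most amino acid uptake runs through a few transport systems. Exchangers of system L import large neutral amino acids such as leucine and pair with the heavy chain CD98, encoded by Slc3a2. Systems ASC, A and N carry small neutral amino acids, with asparagine and glutamine among them, and all depend on sodium. Cationic carriers move arginine and lysine, anionic carriers bring in glutamate and aspartate, and the exchanger xCT brings in cystine, from which cells make glutathione. Cells that cannot make asparagine can take it up through carriers such as these.

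Since shAsns-1 B had 0 reads throughout, there remained 5 libraries with 10244753 to 15955168 gene reads. The library labelled shAsns-1 had the fewest reads of the 5 but reads at 17672 genes, against 15052 to 15392 in the others, and 23.2% of its reads were not aligned, against 17.9 to 20.1%. Levels are given as CPM, reads per 1000000 gene reads, and between genes only as RPKM, which is CPM divided by the exon length in units of 1000 bases. Asns, the targeted gene, stood at 110.4 CPM in the library labelled shAsns-1, 45.7 (A) and 44.2 CPM (B) with shAsns-2, and 58.7 (A) and 56.9 CPM (B) with shRenilla. It was thus higher in the library labelled shAsns-1 than in both shRenilla libraries, against its label, and lower in both shAsns-2 libraries. For shAsns-2 its log2 fold change was -0.34 (SE 0.0882, 95% interval -0.52 to -0.15, adjusted p = 0.216) in edgeR's quasi-likelihood test, whose adjusted p-values are given throughout unless another tool is named, and for the library labelled shAsns-1 it was 0.92 (SE 0.101, 95% interval 0.71 to 1.13, adjusted p = 6.27e-05). The 7 epithelial markers checked summed to 916 CPM in that library and to 1098 to 1145 CPM in the others. Of these, 4 fell in the library labelled shAsns-1: Krt14 (log2 fold change -2.21, adjusted p = 5.3e-05), Krt7 (-0.78, adjusted p = 0.000429), Epcam (-0.69, adjusted p = 0.00259) and Cdh1 (-0.48, adjusted p = 0.0135). Krt8 (-0.12), Krt18 (0.04) and Cldn4 (-0.35) were not called. Of all genes tested, 4.37% were called in that library against shRenilla, in either direction. Markers of blood cells, of which 4 were in the table, summed to 1.66 CPM in the shAsns-1 library and to 0.0720 to 0.382 CPM in the others. The 3 endothelial markers reached at most 1.24 CPM together. Of 4 fibroblast markers, Pdgfra stood at 38.1 CPM in the library with the shAsns-1 label and at 28.5 to 29.6 CPM in the others, while Pdgfrb, Dcn and Col3a1 together did not exceed 0.586 CPM. The part of these differences in the results below was not tested.

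Of the 30 carriers, 18 were expressed, taken as at least 1 CPM in every library, as were 11229 of all 23481 genes. The 18 carriers covered neutral, cationic and cystine uptake and the lysosome, but no anionic carrier was among them. Another 6 were found at trace levels, 3 had at most 3 reads in every library, and Slc1a1, Slc6a14 and Slc38a5 were listed at 0 in all 5. A count of 0 allows a level of up to 0.188 to 0.293 CPM, which is 3 reads of the library's total and covers counting error only. Slc38a2 had the highest level, 187 to 213 RPKM across the 5 libraries. Slc6a6 followed at 75.9 to 92.8 RPKM, with a range below that of Slc38a2 and above all others. Next came Slc7a5 (44.4 to 53.4 RPKM), Slc3a2 (34.9 to 49.9 RPKM), Slc1a5 (30.5 to 40.1 RPKM), Slc7a1 (30.8 to 35.4 RPKM), Slc7a6 (26.2 to 31.7 RPKM) and Slc38a1 (23.4 to 28.5 RPKM), and within this run each neighbour's range overlapped the next. A gap separated Slc38a1 from Slc1a4 at 8.03 to 10.3 RPKM and Slc38a10 at 8.14 to 9.51 RPKM. The remaining 8 lay between 1.00 and 5.55 RPKM. Slc36a1, Slc7a11, Slc6a9 and Slc38a7 formed one overlapping run, and Slc38a9, Slc36a4, Slc43a2 and Slc7a7 a lower one. With exon lengths from the full annotation, 3 neighbouring pairs changed places: Slc7a1 with Slc7a6, Slc38a9 with Slc36a4 and Slc43a2 with Slc7a7. Mean levels of 5 carriers were then lower by more than 1.5 times: Slc38a2 averaged 105 RPKM by the full annotation and 199 RPKM by the basic one, and Slc1a5, Slc7a1, Slc38a1 and Slc38a9 averaged 24.1, 20.7, 16.9 and 0.972 RPKM by the full annotation.

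**Figure D1:**
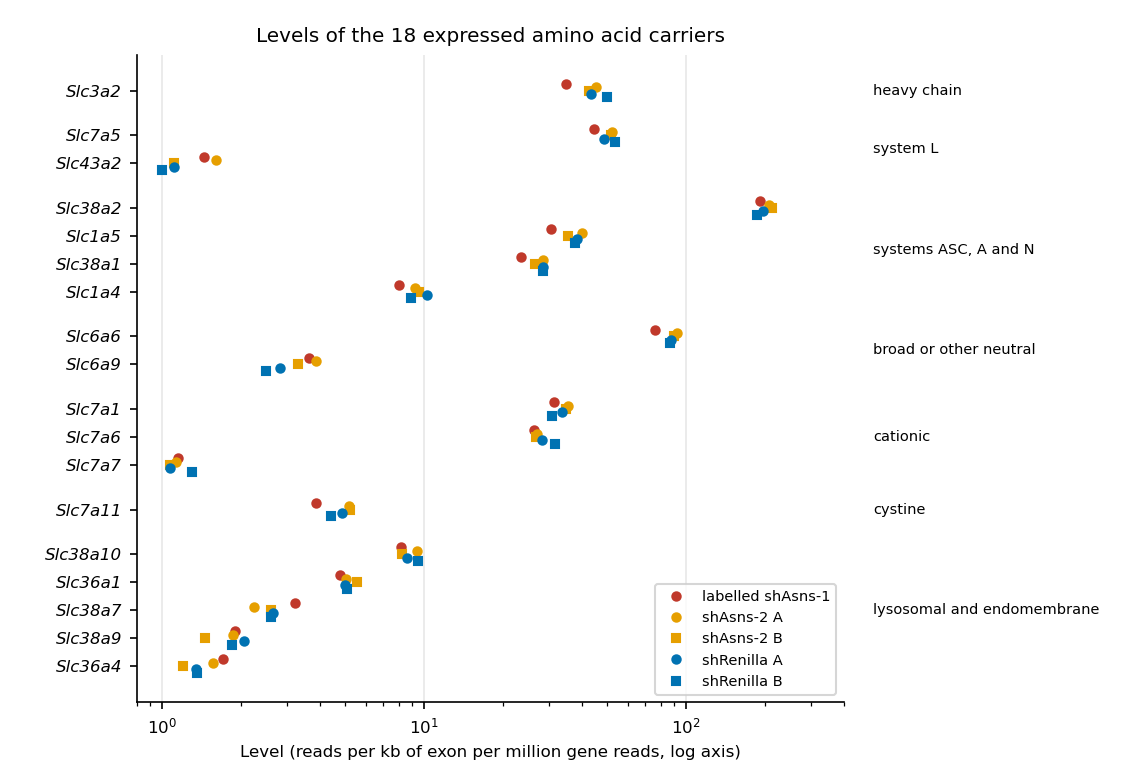
Levels of the 18 expressed carriers as RPKM on a log axis, 1 point per library (circles A, squares B), grouped by transport role. Slc38a2 and Slc6a6 lie to the right of all others at 187 to 213 and 75.9 to 92.8 RPKM, and for most carriers the 5 libraries lie close together.

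Carriers of systems ASC, A and N made up 51.1% of the 30 genes' summed RPKM in that labelled shAsns-1, 50.02 and 50.8% with shAsns-2, and 50.3 and 48.1% in shRenilla. The taurine and glycine carriers with Slc6a14 and Slc6a15 took 16.0 to 17.0% across the 5 libraries, cationic carriers 11.2 to 11.9%, system L 9.08 to 9.98% and the heavy chains 7.05 to 9.18%. Lysosomal and endomembrane carriers took 3.39 to 3.96%, the cystine carrier Slc7a11 0.774 to 0.929% and the anionic carriers at most 0.0316%. The order of the roles by share was the same in all 5 libraries. By the full annotation, systems ASC, A and N took 39.8 to 42.7%, and system L, at 12.5 to 13.6%, took a larger share than the cationic carriers.

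**Figure D2:**
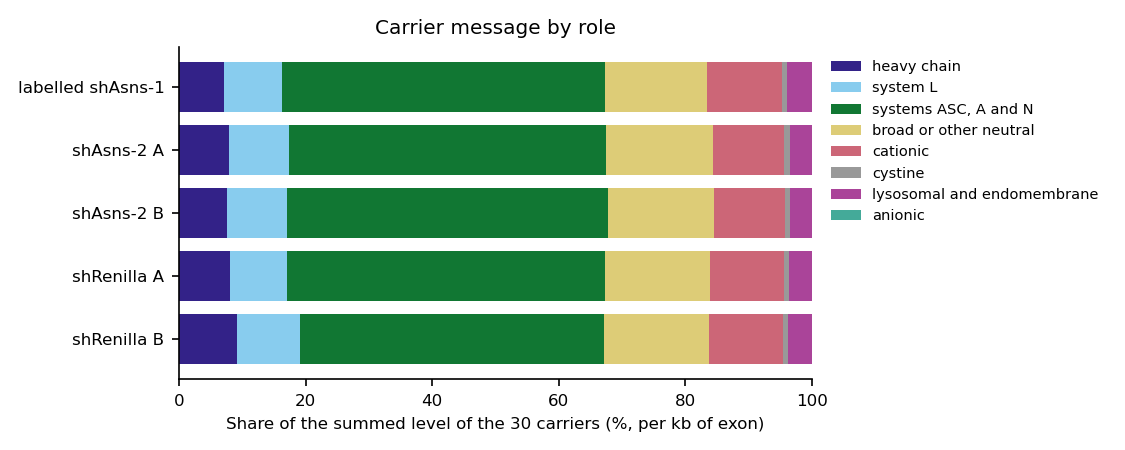
Share of the summed RPKM of the 30 carriers (x axis, %) by transport role in each library. Systems ASC, A and N hold 48.1 to 51.1% in every bar, and the anionic carriers are too low to be seen.

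Asparagine is among the reported substrates of 8 of the carriers, of which 4 were expressed: Slc38a2, Slc38a1, Slc1a5 and the lysosomal Slc38a7. Slc38a2 encodes SNAT2, a system A transporter that cells raise when amino acids run short (GRCm38 chromosome 15, from 96687392 to 96699730, minus strand). It stood at 896 CPM in the library labelled shAsns-1, 967 (A) and 994 CPM (B) with shAsns-2, and 919.5 (A) and 870.4 CPM (B) with shRenilla. Both shAsns-2 libraries lay above both shRenilla libraries, and the library labelled shAsns-1 lay between the shRenilla libraries. The group means were 980.4 ± 19.4 CPM with shAsns-2 and 895 ± 34.7 CPM with shRenilla (SD, n = 2 each). For shAsns-2 this came to a log2 fold change of 0.16 (SE 0.0783, 95% interval -0.01 to 0.33, adjusted p = 0.531), which was not called. Slc38a1, or SNAT1, the other broadly expressed system A transporter (chromosome 15, from 96571418 to 96642913, minus strand), stood at 252 CPM in the library labelled shAsns-1, 306 (A) and 284 CPM (B) with shAsns-2, and 305 (A) and 306 CPM (B) with shRenilla. Lowest of the 5 was the library labelled shAsns-1, and the shAsns-2 range reached into that of shRenilla. Slc1a5 encodes ASCT2, an exchanger of small neutral amino acids that is a main route of glutamine in many tumour cells (chromosome 7, from 16781340 to 16798274, plus strand). It stood at 84.4 CPM in the library labelled shAsns-1, 111 (A) and 97.8 CPM (B) with shAsns-2, and 106 (A) and 104 CPM (B) with shRenilla. Again the library labelled shAsns-1 was lowest, and shAsns-2 lay on both sides of shRenilla. Slc38a7, or SNAT7, which exports glutamine and asparagine from the lysosome, stood at 10.7 CPM in the library labelled shAsns-1, 7.45 (A) and 8.71 CPM (B) with shAsns-2, and 8.84 (A) and 8.68 CPM (B) with shRenilla, highest in the library labelled shAsns-1. Its log2 fold change there was 0.28 (SE 0.192, 95% interval -0.12 to 0.69, adjusted p = 0.455). In shAsns-2 the log2 fold changes of Slc38a1, Slc1a5 and Slc38a7 were -0.02 (95% interval -0.19 to 0.14), 0.01 (-0.17 to 0.19) and -0.08 (-0.41 to 0.25), with adjusted p-values of 0.910 to 0.976 in edgeR's test.

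The other 4 carriers that take asparagine had next to no message. Slc38a3 and Slc38a5, the system N transporters, had at most 1 read in a library and 0 reads in all, in that order. Slc6a14, a broad carrier of neutral and cationic amino acids, was listed at 0, and Slc7a8, the system L light chain LAT2, had 1 read in the library labelled shAsns-1 and 0 elsewhere. Together the 8 genes summed to 249.6 RPKM in the library labelled shAsns-1, 278 (A) and 278 RPKM (B) with shAsns-2, and 267 (A) and 256 RPKM (B) with shRenilla. Slc38a2 gave 73.1 to 77.1% of that sum, and Slc38a2, Slc38a1 and Slc1a5 together at least 98.7%. Slc1a4, the ASC carrier of alanine, serine and cysteine, stood at 31.5 CPM in the library labelled shAsns-1, 36.2 (A) and 37.7 CPM (B) with shAsns-2, and 40.4 (A) and 35.1 CPM (B) with shRenilla. The library labelled shAsns-1 was the lowest, and both shAsns-2 values fell inside the shRenilla range (log2 fold change -0.00332, 95% interval -0.22 to 0.21).

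Slc3a2 encodes the heavy chain that carries the light chains of system L, of the y+L exchangers and of xCT to the plasma membrane (chromosome 19, from 8706882 to 8723369, minus strand). It was the only carrier called in any of the comparisons: it fell in the lone library labelled shAsns-1, whose Asns level went against that label. Slc3a2 stood at 105 CPM in the library labelled shAsns-1, 137 (A) and 128 CPM (B) with shAsns-2, and 132 (A) and 151 CPM (B) with shRenilla. All 4 other libraries lay above the library labelled shAsns-1, and shAsns-2 reached into the range of shRenilla. The group means were 133 ± 5.96 CPM with shAsns-2 and 141 ± 13.6 CPM with shRenilla (SD, n = 2 each). Its log2 fold change there was -0.43 (SE 0.110, 95% interval -0.66 to -0.20, adjusted p = 0.0336), or 0.741-fold of shRenilla (0.631 to 0.871), against -0.06 (SE 0.0867, 95% interval -0.25 to 0.12, adjusted p = 0.859) in shAsns-2. From the reads alone, the ratio of that library was 0.801 to shRenilla A (95% exact interval 0.744 to 0.863, counting error only) and 0.699 to shRenilla B (0.649 to 0.752). In bulk libraries fewer cells that make a transcript and less of it per cell cannot be told apart. The call was lost without shRenilla B (-0.34, adjusted p = 0.0553), without shAsns-2 A or B (adjusted p = 0.0899 and 0.0886), in DESeq2 (adjusted p = 0.0568) and with the GC trend removed (-0.38, adjusted p = 0.0675). Across 8914 well-expressed genes, log2 fold changes of this library fell with transcript GC content (Spearman -0.325, a description across genes), and the GC content of Slc3a2 was 53.4%, against a median of 49.5% over the genes tested.

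Among the light chains that pair with Slc3a2, Slc7a5 (LAT1, the main importer of leucine and other large neutral amino acids) was the most abundant at 58.7 to 61.1% of their summed RPKM. Slc7a6 (y+LAT2, which exchanges cationic for neutral amino acids) gave 31.5 to 34.9%, Slc7a11 (xCT) 4.85 to 6.16% and Slc7a7 (y+LAT1) 1.26 to 1.52%. The ratio of heavy chain to the sum of the 5 light chains, Slc7a8 included, was 0.461 in the library labelled shAsns-1, 0.530 and 0.502 with shAsns-2, and 0.527 and 0.550 in shRenilla. Slc7a5 stood at 156 CPM in the library labelled shAsns-1, 184 (A) and 182 CPM (B) with shAsns-2, and 171 (A) and 188 CPM (B) with shRenilla. Again the lowest was the library labelled shAsns-1 (log2 fold change -0.21, SE 0.101, 95% interval -0.42 to 0.00380, adjusted p = 0.265, not called), and both shAsns-2 values lay inside the shRenilla range. Slc7a6 stood at 98.4 CPM in the library labelled shAsns-1, 101 (A) and 100.2 CPM (B) with shAsns-2, and 106 (A) and 119 CPM (B) with shRenilla. The library labelled shAsns-1 and both shAsns-2 libraries lay below shRenilla, without a call: -0.20 (SE 0.105, 95% interval -0.42 to 0.02, adjusted p = 0.309) under the shAsns-1 label and -0.13 (SE 0.0842, 95% interval -0.31 to 0.05, adjusted p = 0.637) for shAsns-2. The 2 members of system L that need no heavy chain were low: Slc43a1 had at most 2 reads in a library, and Slc43a2 stood at 10.3 CPM in the library labelled shAsns-1, 11.6 (A) and 7.99 CPM (B) with shAsns-2, and 7.96 (A) and 7.21 CPM (B) with shRenilla. For Slc43a2 the 4 libraries of shAsns-2 and shRenilla did not overlap, but shAsns-2 B and shRenilla A nearly coincided (log2 fold change 0.37, SE 0.181, 95% interval -0.02 to 0.75, adjusted p = 0.536). The value was 0.10 without shAsns-2 A and 0.64 without shAsns-2 B.

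The expressed cystine carrier was Slc7a11, the light chain of xCT (chromosome 3, from 49892526 to 50443614, minus strand). Of the carriers it had the lowest adjusted p between shAsns-2 and the library labelled shAsns-1. Slc7a11 stood at 38.0 CPM in the library labelled shAsns-1, 50.8 (A) and 51.3 CPM (B) with shAsns-2, and 47.7 (A) and 43.3 CPM (B) with shRenilla. The library labelled shAsns-1 lay below both shRenilla libraries and both shAsns-2 libraries lay above them. Neither difference from shRenilla was called: the log2 fold change was -0.27 (SE 0.120, 95% interval -0.53 to -0.02, adjusted p = 0.215) under the shAsns-1 label and 0.19 (SE 0.0923, 95% interval -0.00188 to 0.39, adjusted p = 0.520) for shAsns-2. Between shAsns-2 and the library labelled shAsns-1 it was 0.47 (SE 0.121, 95% interval 0.21 to 0.72, adjusted p = 0.0549), just outside the threshold. That comparison was past the threshold with the GC trend removed (0.60, adjusted p = 0.0209), without the low-count filter (0.48, adjusted p = 0.0126) and without shRenilla A or B (adjusted p = 0.0425 and 0.0231). It was not past it without shAsns-2 A or B (adjusted p = 0.298 and 0.218) or in DESeq2 (adjusted p = 0.159). The transcript's GC content, 40.7%, was the lowest of the 20 carriers tested. Slc3a1, the heavy chain of the cystine and cationic exchanger of kidney and gut, had 2 to 6 reads in a library, and 26.5% of its exon bases overlap Prepl on the opposite strand.

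The promoters of Slc3a2, Slc7a11 and Slc1a4 are shown because all 3 genes are known targets of ATF4, the transcription factor of the amino acid response, and all 3 were lowest in the library labelled shAsns-1, so the choice was made with their levels known. Some other carriers known to respond to amino acid shortage were not lowest there. In that library the log2 fold change against shRenilla was -0.01 for Slc38a2, -0.05 for Slc7a1 and 0.43 for Slc6a9. Carriers whose promoters are not shown, such as Slc7a5 and Slc1a5, were lowest there too. By scaled CPM that library was lowest for 52.6% of 19 carriers, against 28.5% of all genes tested. Each promoter shown is the window from 250 bases before to 50 bases after a start in RefSeq (GRCm38.p6), 5′ to 3′. Capitals mark TGATGNAA, the core of the C/EBP-ATF response element, on either strand.
Slc3a2 (chr19:8713848-8714147, minus strand): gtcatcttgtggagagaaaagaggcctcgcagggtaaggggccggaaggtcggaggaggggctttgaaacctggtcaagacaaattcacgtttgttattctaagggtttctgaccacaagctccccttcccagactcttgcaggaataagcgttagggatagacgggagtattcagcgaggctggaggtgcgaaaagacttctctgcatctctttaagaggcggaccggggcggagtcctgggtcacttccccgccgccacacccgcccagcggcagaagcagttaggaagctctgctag
Slc7a11 (chr3:50443564-50443863, minus strand): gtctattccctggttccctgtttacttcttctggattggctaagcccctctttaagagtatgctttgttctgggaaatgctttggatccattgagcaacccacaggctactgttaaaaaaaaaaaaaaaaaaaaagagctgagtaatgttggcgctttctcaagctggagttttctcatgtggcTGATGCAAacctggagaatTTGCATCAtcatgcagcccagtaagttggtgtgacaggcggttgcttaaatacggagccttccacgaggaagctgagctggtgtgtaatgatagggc
Slc1a4 (chr11:20332664-20332963, minus strand): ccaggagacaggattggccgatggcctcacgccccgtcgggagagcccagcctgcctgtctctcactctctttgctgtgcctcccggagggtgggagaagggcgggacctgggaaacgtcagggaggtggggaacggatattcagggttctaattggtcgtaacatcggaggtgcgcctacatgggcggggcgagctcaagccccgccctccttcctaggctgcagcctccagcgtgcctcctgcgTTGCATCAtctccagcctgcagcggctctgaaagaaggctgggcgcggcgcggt
The Slc7a11 window held 2 matches, TGATGCAA and TTGCATCA, beginning 66 and 47 bases before the start, and the Slc1a4 window held 1, TTGCATCA, which spans the start from 4 bases before it. The Slc3a2 window held 0, which says only that these letters are not in it. RefSeq gave 31 such windows for 22 of the 30 carriers. TGATGNAA was in 4 of these windows (12.9%), from Slc1a4, Slc7a11 and Slc7a7 (whose windows overlap and share a match), against 3.97% of all 32851 windows. CACGTG, the E-box bound by MYC and TFEB family factors, was in 4 (12.9%), from Slc36a1, Slc38a5, Slc38a7 and Slc43a1, against 7.15% of all windows. These matches are a description of the sequence only.

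Of the cationic carriers, Slc7a1 (CAT1, the widely expressed arginine and lysine transporter) and Slc7a6 had the highest levels. Slc7a1 stood at 225 CPM in the library labelled shAsns-1, 254 (A) and 250.4 CPM (B) with shAsns-2, and 242 (A) and 221 CPM (B) with shRenilla. Both shAsns-2 libraries lay above both shRenilla libraries, and the library labelled shAsns-1 lay between the shRenilla values. Its log2 fold change was -0.05 (SE 0.100, 95% interval -0.27 to 0.16, adjusted p = 0.824) in that library and 0.15 (SE 0.0812, 95% interval -0.02 to 0.32, adjusted p = 0.574) in shAsns-2. Slc7a7 was low at 2.81 to 3.43 CPM, with overlapping groups. Slc7a3 (CAT3) was found at 11 reads in the library labelled shAsns-1, 9 (A) and 12 (B) with shAsns-2, and 22 (A) and 17 (B) with shRenilla, and Slc7a2 (CAT2, the cationic transporter of liver and activated macrophages) had 1 to 4 reads in a library. For anionic uptake, Slc1a1 (EAAT3) was listed at 0, Slc1a2 (GLT-1, the main glutamate transporter of astrocytes) had 1 to 5 reads and Slc1a3 (GLAST, a transporter of glutamate and aspartate) had 6 reads in the library labelled shAsns-1, 2 (A) and 0 (B) with shAsns-2, and 0 (A) and 1 (B) with shRenilla. No anionic carrier passed the filter on low counts. Annotated exons of 4430402I18Rik overlap 32.0% of the exon bases of Slc1a1 on the opposite strand, and the strand setting of the counting is not known.

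Slc6a6, the taurine transporter, was the second most abundant carrier. It stood at 469 CPM in the library labelled shAsns-1, 574 (A) and 558 CPM (B) with shAsns-2, and 540.1 (A) and 538 CPM (B) with shRenilla. The library labelled shAsns-1 was the lowest and both shAsns-2 libraries lay above both shRenilla libraries, with log2 fold changes of -0.21 (SE 0.0953, 95% interval -0.41 to -0.01, adjusted p = 0.228) and 0.10 (SE 0.0768, 95% interval -0.06 to 0.26, adjusted p = 0.706). Slc6a9 (GlyT1, the glycine transporter) was the one carrier above both shRenilla libraries in the other 3 that had an unadjusted p under 0.05 in each comparison. Slc6a9 stood at 13.4 CPM in the library labelled shAsns-1, 14.2 (A) and 12.1 CPM (B) with shAsns-2, and 10.4 (A) and 9.17 CPM (B) with shRenilla. Its log2 fold change was 0.43 (SE 0.185, 95% interval 0.04 to 0.82, adjusted p = 0.199) under the shAsns-1 label and 0.44 (SE 0.146, 95% interval 0.13 to 0.75, adjusted p = 0.332) for shAsns-2, neither of them called. The unadjusted p-values of edgeR's test were 0.0310 and 0.00779 in the same order, and both comparisons use the same shRenilla libraries. Annotated exons of Ccdc24 on the opposite strand overlap 38.8% of the exon bases of Slc6a9, so its level is uncertain. Slc6a15, a carrier of branched-chain amino acids and proline known from brain, was found at 4 reads in the library labelled shAsns-1, 5 (A) and 8 (B) with shAsns-2, and 13 (A) and 11 (B) with shRenilla.

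All 5 carriers of lysosomes and other inner membranes were expressed, and none was called. Slc38a10, a transporter of the SNAT family whose place in the cell is less well defined, was the most abundant at 44.1 CPM in the library labelled shAsns-1, 51.0 (A) and 44.6 CPM (B) with shAsns-2, and 46.8 (A) and 51.6 CPM (B) with shRenilla. Slc36a1 (PAT1, which exports small amino acids from the lysosome with protons) stood at 25.7 CPM in the library labelled shAsns-1, 27.1 (A) and 29.95 CPM (B) with shAsns-2, and 26.8 (A) and 27.4 CPM (B) with shRenilla. In shAsns-2 the 95% intervals of the log2 fold change of these 2 were -0.22 to 0.19 and -0.11 to 0.32. The library labelled shAsns-1 was the lowest for both, with log2 fold changes of -0.17 and -0.09. Slc38a9, the arginine sensor of the lysosome that signals to mTORC1, stood at 16.9 CPM in the library labelled shAsns-1, 16.6 (A) and 13.0 CPM (B) with shAsns-2, and 18.2 (A) and 16.4 CPM (B) with shRenilla. Its shAsns-2 range overlapped that of shRenilla (log2 fold change -0.21, SE 0.137, 95% interval -0.50 to 0.08, adjusted p = 0.635), and this became -0.39 or -0.03 once shAsns-2 A or B was left out, and -0.13 when shRenilla A was. Slc36a4 (PAT4, a high-affinity transporter of proline and tryptophan) stood at 11.1 CPM in the library labelled shAsns-1, 10.2 (A) and 7.85 CPM (B) with shAsns-2, and 8.77 (A) and 8.89 CPM (B) with shRenilla, highest in the library labelled shAsns-1 (log2 fold change 0.32, SE 0.201, 95% interval -0.10 to 0.75, adjusted p = 0.409).

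In shAsns-2 against shRenilla, edgeR called 0 of the 20 carriers that passed the filter on low counts, against a background of 0.0642% of the 12457 genes tested. At an unadjusted p under 0.05, 1 carrier was higher (Slc6a9) and 0 were lower, against 5.59% and 4.05% of all genes tested, and DESeq2 and limma-voom called 0. Slc6a15 passed the filter only with both shRenilla libraries, where it is highest, so it is left out of the counts that follow, a choice made after seeing the data. The other 19 log2 fold changes ran from -0.55 to 0.44, 10 positive and 9 negative, with a median of 0.01, beside -0.00140 over all genes tested. By CPM scaled with TMM factors, both shAsns-2 libraries lay above both shRenilla libraries for 7 of the 19 (Slc38a2, Slc6a6, Slc6a9, Slc7a1, Slc7a11, Slc36a1 and Slc43a2), or 36.8%, against 20.6% of all genes tested. They lay below for 2 (Slc7a6 and Slc7a3), or 10.5%, against 20.7% of all genes. For Slc36a1 this holds only after scaling, since its unscaled CPM overlapped between shAsns-2 and shRenilla.

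In the library labelled shAsns-1 against shRenilla, 1 of the 20 carriers tested was called, Slc3a2, against 4.37% of all genes tested. At an unadjusted p under 0.05, 5 were lower (Slc3a2, Slc1a5, Slc38a1, Slc6a6 and Slc7a11) and 1 was higher (Slc6a9), against 9.54% lower and 10% higher of all genes tested. DESeq2 called 0 and limma-voom 1. Slc1a5 had a log2 fold change of -0.33 (SE 0.110, 95% interval -0.56 to -0.10, adjusted p = 0.0985) and Slc38a1 one of -0.29 (SE 0.0986, 95% interval -0.50 to -0.08, adjusted p = 0.101). Of the 19 without Slc6a15, 15 log2 fold changes were negative and 4 positive, with a median of -0.17, beside -0.00901 over all genes tested. By scaled CPM this library lay below all 4 others for 10 of the 19, or 52.6%, against 28.5% of all genes tested. It lay above all 4 for 2, Slc36a4 and Slc38a7, or 10.5%, against 27.3% of all genes. The fewer aligned reads, the larger number of genes with reads and the fall of some epithelial markers in this library stand beside these shifts. So does GC content, with which the log2 fold changes of this library fell (Spearman -0.325 over 8914 genes). The 20 carriers tested had a median GC content of 51.9%, against 49.5% over the genes tested. The part of each in these shifts was not tested. This comparison rests on a lone library, whose spread is taken from the other groups, and shares the shRenilla libraries with that of shAsns-2.

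**Figure D3:**
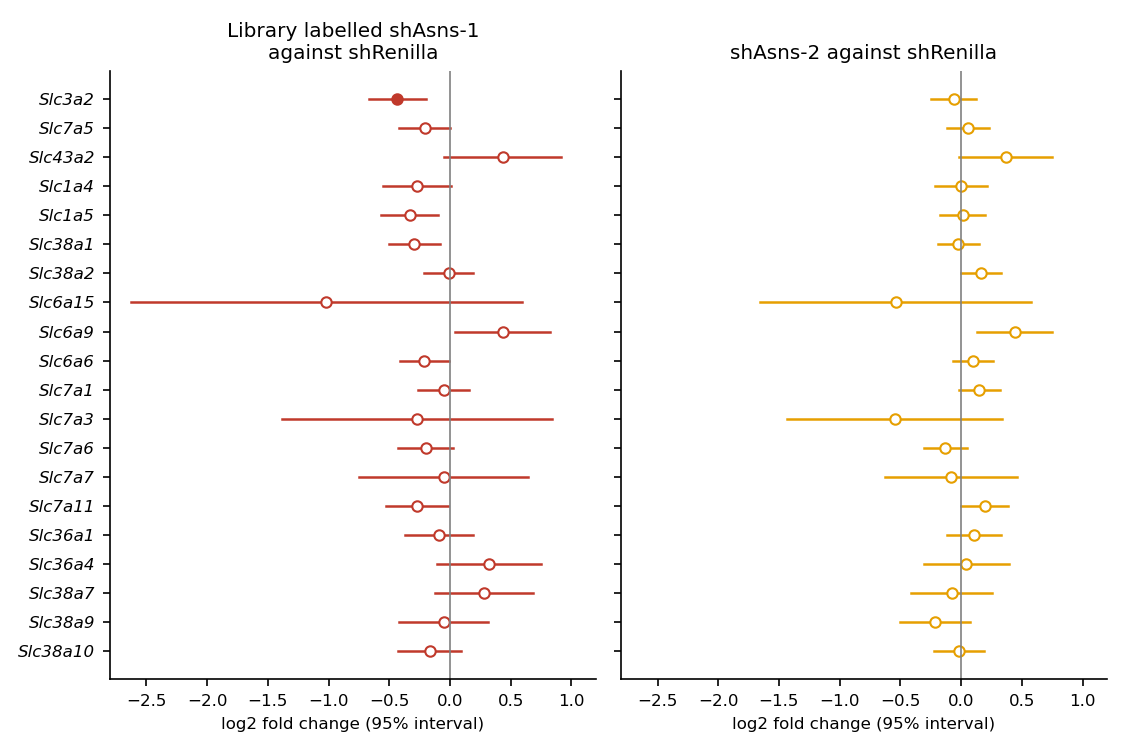
log2 fold changes (points) with 95% intervals (lines) of the 20 carriers tested, for the library labelled shAsns-1 (left) and shAsns-2 (right), each against shRenilla; filled points have an adjusted p under 0.05 in edgeR's test. Slc3a2 at -0.43 on the left is the one filled point, and both panels use the same shRenilla libraries.

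Between shAsns-2 and the library labelled shAsns-1, edgeR called 0 of the 20, against 2.14% of all genes tested. At an unadjusted p under 0.05, 6 carriers were higher in shAsns-2 and 0 lower, against 8.87% and 7.89% of all genes tested, and DESeq2 and limma-voom called 0. Besides Slc7a11, these were Slc3a2 (0.37, SE 0.111, 95% interval 0.14 to 0.60, adjusted p = 0.0930), Slc1a5 (0.34, SE 0.111, 95% interval 0.11 to 0.58, adjusted p = 0.124), Slc6a6 (0.31, SE 0.0957, 95% interval 0.11 to 0.51, adjusted p = 0.106), Slc38a1 (0.27, SE 0.0988, 95% interval 0.06 to 0.48, adjusted p = 0.176) and Slc7a5 (0.26, SE 0.101, 95% interval 0.05 to 0.48, adjusted p = 0.196). Of the 6, all but Slc7a5 were also listed above as lower in the library labelled shAsns-1 against shRenilla. Both comparisons use that same lone library, so they are not separate results. With 1 library on that side, hairpin and library cannot be told apart. Slc3a2 and Slc6a6 were past the threshold in this comparison without shRenilla B (adjusted p = 0.0305 and 0.0378).

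**Figure D4:**
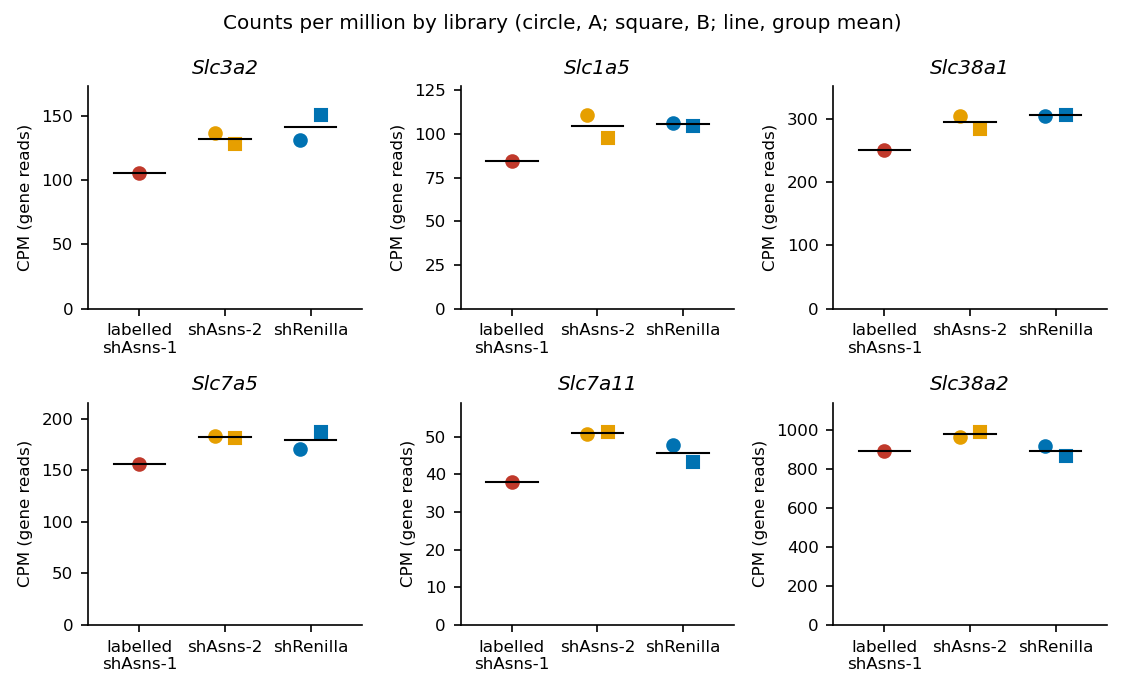
CPM by library (y axis from 0) of Slc3a2, Slc1a5, Slc38a1, Slc7a5, Slc7a11 and Slc38a2, with circles for library A, squares for library B and lines for group means. The library labelled shAsns-1 is lowest for all but Slc38a2, where it stands at 896 CPM between the shRenilla libraries.

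Carriers outside the 30 were counted from lists of their families. Of 24 other plasma membrane amino acid carriers, 2 were expressed: Slc38a6, an orphan of the SNAT family (1.151 to 1.34 RPKM), and Slc16a10, the aromatic amino acid transporter TAT1 (0.868 to 0.966 RPKM). In shAsns-2, 0 of the 4 tested were called against shRenilla or against the library labelled shAsns-1. Of all genes tested, 0.0642% and 2.14% were called there, in that order. In the library labelled shAsns-1 against shRenilla, 1 of the 4 fell and 0 rose, beside 4.37% of all genes called in either direction. That gene was Slc6a20b, a close relative of the imino acid transporter Slc6a20a, with 1 read in that library, 13 (A) and 10 (B) with shAsns-2, and 26 (A) and 21 (B) with shRenilla (adjusted p = 0.0282 in edgeR's test). Its ratio to both shRenilla libraries was 0.0628 (95% exact interval 0.00156 to 0.367, counting error only), and reads may be shared with that relative. Slc6a20b passed the filter on low counts only through the other libraries, where it is higher, so only a fall could be called. Of 7 other lysosomal carriers in the table, 5 were expressed and 0 of the 6 tested were called in any comparison, beside the same shares of all genes. Slc15a4, which carries histidine and small peptides (7.003 to 9.99 RPKM), and Slc17a5, or sialin (6.29 to 8.66 RPKM), were the highest of them. Of 13 mitochondrial amino acid carriers, 11 were expressed and 0 of the 12 tested were called in any comparison, again beside those shares. Sfxn1, the mitochondrial serine carrier, reached 77.0 to 89.4 RPKM and Sfxn3, its close relative, 29.8 to 35.2 RPKM.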

How the data were processed

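The deposited table holds whole-number read counts per gene symbol for 6 libraries. Per the submitters' processing notes, the authors used Bowtie2, HTSeq and mm10; no source used here gives versions, annotation or strand setting. Per the labels, RNA was taken up in Trizol and libraries were made with the Nugen Ovation kit. The 5 HTSeq tallies were left out, with 36.1 to 38.3% of reads in no feature. The design assumed 6 libraries and was fitted to 5, since shAsns-1 B was 0 throughout. The fit used edgeR 4.0.16 (R 4.3.3): filterByExpr by group, TMM factors, 1 quasi-likelihood fit over all groups (12457 genes, 2 residual degrees of freedom, biological coefficient of variation 6.23%). The spread of each gene was drawn toward that of the other genes, with a median of 14.7 prior degrees of freedom. Benjamini-Hochberg adjustment ran over all genes tested, and calls were made under an adjusted p of 0.05. Intervals are 95%. DESeq2 1.42.0 and limma-voom (limma 3.58.1) were alternatives, as were RLE scaling, no filter, a GC correction, a replicate block and leaving out each library. Exon lengths (basic transcript set, exon union) and GC content came from GENCODE M21 on GRCm38, the same assembly as mm10, and 99.2% of tested genes matched. Libraries of a group were not duplicates (chi-square over degrees of freedom: 3.17 within shAsns-2, 9.20 within shRenilla). The members and the gene lists were chosen with earlier results of these data known. All 30 members could be named; of the other lists, called genes and the 2 with the highest RPKM.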

Additional observations from a re-analysis of the deposited data

Results flagged for a closer look

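Asns, the targeted gene, differed between shAsns-2 and the library labelled shAsns-1, whose Asns level goes against that label: with shAsns-2 over the one library labelled shAsns-1, its log2 fold change was -1.26 (SE 0.103, 95% interval -1.47 to -1.04, adjusted p = 5.96e-06) in edgeR's quasi-likelihood test. It stood at 45.7 and 44.2 CPM in shAsns-2 and at 110.4 CPM in the library labelled shAsns-1.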

How the results depend on the processing

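The count of carriers called in shAsns-2 against shRenilla was 0 under every alternative. In the lone library labelled shAsns-1, where 1 carrier was called against shRenilla, the count was 0 in DESeq2 and with the GC trend removed, 2 with the replicate letter as a block (Slc3a2 and Slc1a5) and 2 with the replicate block and the GC trend removed (Slc3a2 and Slc7a11), and 0 to 1 when a library was left out. Between shAsns-2 and that library the count was 0, but 3 with no filter on low counts (Slc3a2, Slc6a6 and Slc7a11), 3 with the replicate block (Slc1a5, Slc3a2 and Slc7a11), 1 with the GC trend removed, 1 with the replicate block and the GC trend removed (Slc7a11 in both), and 0 to 3 when a library was left out. Calls over all genes moved too. In shAsns-2 against shRenilla 8 genes were called, against 114 with no filter, 7 in DESeq2 and 3 with the GC trend removed. With the block 178 were called, and 156 with the block and the GC trend removed. Fits without a library of shAsns-2 or shRenilla left 1 library in that group, so their count of 0 carriers says little. Against shRenilla, the library labelled shAsns-1 had 544 called genes, against 257 in DESeq2, 363 with the GC trend removed, 924 with the block, 732 with both and 290 to 825 when a library was left out. Between shAsns-2 and that library 267 were called, against 608 with no filter, 875 with the block, 152 with the GC trend removed, 619 with both and 58 to 642 when a library was left out. The letters A and B were not shown to pair the samples: deviations of same-letter libraries from their group means correlated at 0.0268 over 8952 genes in shAsns-2 and shRenilla. The number of carriers expressed stayed within 18 to 19 over the thresholds, scalings and left-out libraries tried, of which the left-out libraries were chosen after seeing the data. Of 46 fold changes under all alternatives, 522 values were computed, 22 changed sign and 0 of those were called. Slc1a4 in shAsns-2 turned to 0.000765 in limma-voom and 0.00268 with the block, Slc1a5 to -0.0314 with the GC trend removed and -0.0316 with the block as well. Slc7a7 in the library labelled shAsns-1 turned to 0.00206 with the block and 0.0440 with the block and the GC trend removed. When a library was left out, the log2 fold changes in shAsns-2 that changed sign ranged as follows: Slc3a2 -0.150 to 0.0290, Slc7a5 -0.00289 to 0.118, Slc1a4 -0.107 to 0.114, Slc1a5 -0.0842 to 0.105, Slc38a1 -0.0810 to 0.0324, Slc7a7 -0.216 to 0.0475, Slc36a4 -0.146 to 0.243, Slc38a7 -0.201 to 0.0155 and Slc38a10 -0.118 to 0.0858. In the library labelled shAsns-1 they were Slc38a2 -0.0564 to 0.0400, Slc7a1 -0.125 to 0.0247, Slc7a7 -0.182 to 0.0816 and Slc38a9 -0.131 to 0.0356. Without a change of sign, uncalled values in shAsns-2 moved by over 1.5 times for Slc7a1 (0.08 without shRenilla B and 0.23 without shRenilla A), Slc7a11 (0.12 without shRenilla B), Slc7a6 (-0.05 without shRenilla B and -0.20 without shRenilla A), Slc36a1 (0.03 without shAsns-2 B and 0.17 without shAsns-2 A), Slc38a9 and Slc43a2. In the library labelled shAsns-1 this held for Slc7a6 (-0.12 without shRenilla B), Slc1a4, Slc7a3 and Slc38a10. The causes were not tested. Depth limits the low carriers: 10 of the 30 did not pass the filter and were not tested.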
